A study of Mus musculus with 2 samples.

Results

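Cdk2 and 4 other regulators of cyclin-dependent kinases (CDKs), Spdya, Ccnb3, Cdk6 and Cdc25c, were examined in an RNA immunoprecipitation sequencing (RIP-seq) experiment on BUD31, a spliceosome protein. The members were taken by gene symbol from the authors' annotated list of peaks: 5 of the 3258 genes that the list names, with 21 of its 16331 peaks. The BUD31 library held RNA recovered with an anti-BUD31 antibody. The other library was the input, 10% of the total RNA. Both came from germ cells freed from the testes of C57BL/6J mice on postnatal day 14 by enzymatic digestion, when the first wave of spermatogenesis is in meiotic prophase, and no genotype other than the strain is given. There was 1 library per group, so no test between groups was possible and no value below has a replicate error.

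A peak here is a stretch of the mm10 genome that the authors called for the BUD31 library and named for a gene. The list gives its position and an annotation class (intron, exon, 3′ UTR, intergenic and others) and no read count, fold or score, so depth is unknown and a gene can be described only by how many peaks it has, where they lie and how much of its length they cover. The list gives no strand, so genes that overlap cannot be separated. Of 8 germ cell markers 5 lie on chromosomes that hold a peak, and 3 of these (Mael, Piwil1 and Sycp3) had one. Of 11 markers of Sertoli, Leydig and myoid cells and macrophages, 10 lie there and 2 (Wt1 and Myh11) had one. Of all protein-coding genes on these chromosomes 18.8% had a peak. That share depended on the chromosome, with 39.2% on chromosome 5 and 3.02% on chromosome 17. The marker counts therefore say little about the source of the RNA. How far somatic RNA contributes to the members' peaks was not tested.

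CDKs are kinases that act only when bound to an activating partner, most often a cyclin. In mouse CDK2 is dispensable for most mitotic cycles but required for meiotic prophase, where it sits at the telomeres that attach to the nuclear envelope and at crossover sites. Its activator at telomeres is Speedy A, the product of Spdya, a CDK-binding protein unrelated in sequence to cyclins. CCNB3 is a cyclin expressed in meiotic cells and needed for the first meiotic division of mouse oocytes, CDK6 is the kinase of D-type cyclins that drives entry into the cell cycle, and CDC25C is a phosphatase that removes inhibitory phosphates from CDK1.

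The 5 genes carried peaks in very different amounts. Ccnb3 had 11 peaks, Spdya had 4, Cdk6 had 3, Cdc25c had 2 and Cdk2 had 1. The share of the gene under its peaks ran in another order, with 60.4% of Ccnb3, 28.1% of Cdk2, 24.8% of Cdc25c, 3.79% of Cdk6 and 2.24% of Spdya. Introns were the class of 16 of the 21 peaks (76.2%), against 81.8% of all peaks in the list. The other 5 were 1 exon peak in Cdk2, 1 3′ UTR peak in Cdk6 and 3 intergenic peaks named for Ccnb3. The median width of the 21 peaks was 1380 bp, against 1400 bp over the whole list.

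**Figure D1:**
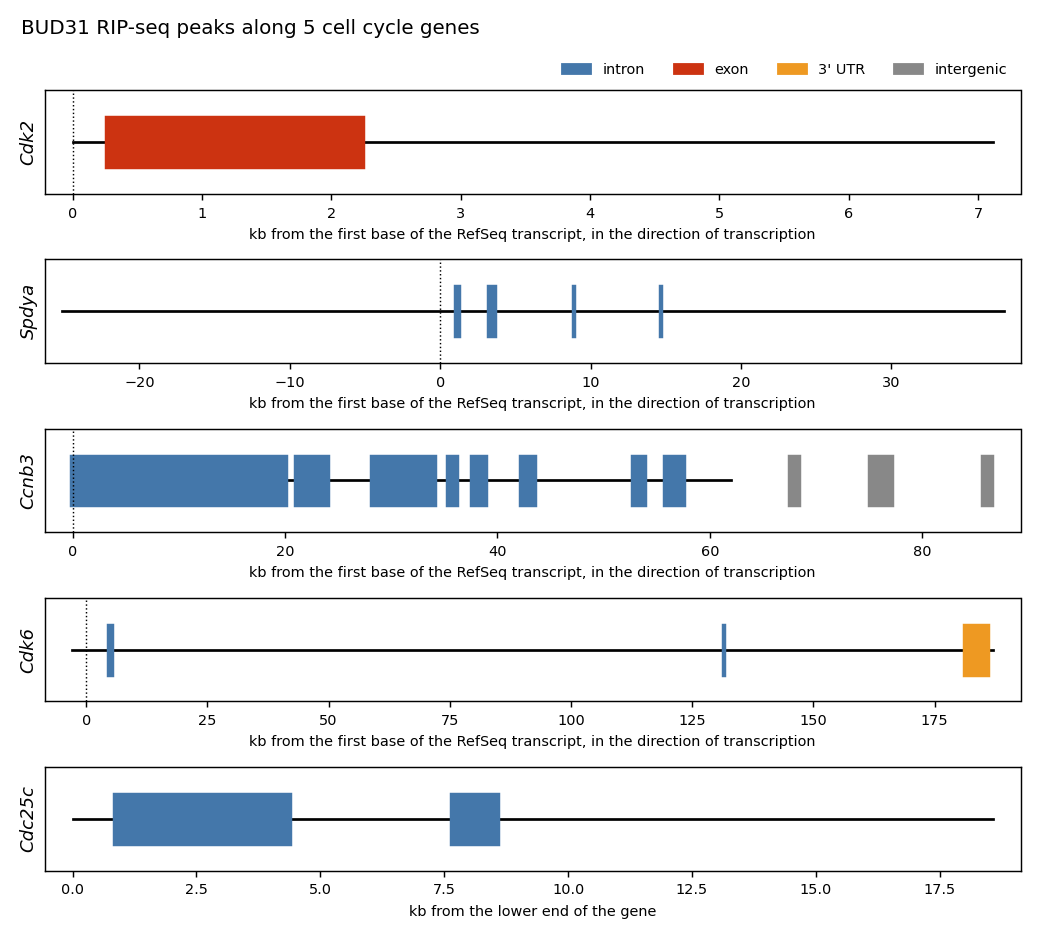
Positions of the peaks named for each gene, in kb from the first base of the RefSeq transcript in the direction of transcription (dotted line), or for Cdc25c from the lower end of the gene. The black line is the extent of the gene and the boxes are peaks, coloured by the authors' class. The Cdk2 peak starts 251 bp from the first base, and the Ccnb3 peaks fill the beginning of the gene and continue beyond its end. Those of Spdya are narrow and lie within 13.8 kb in the middle of the gene. Those of Cdk6 lie far apart, the 3′ UTR peak being the widest.

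Cdk2, the kinase, lies at chr10:128697938-128705051 on the minus strand, a span of 7.11 kb, and is the shortest of the 5 genes. Its peak, at chr10:128702801-128704800, is 2000 bp wide, or 10 of the 200 bp bins in which positions on chromosome 10 are given. It reaches from 251 to 2250 bp after the first base of the transcript, so the peak lies near the beginning of the transcription unit without reaching its first base. The remainder held no peak of the list. The authors' class is exon, assigned through the transcript NM_183417.3. One class is given for the whole peak, so it does not say how the 2000 bp divide between exons and introns. The peak lies entirely within Pmel, a pigment cell gene whose reference extent (chr10:128695888-128720238) spans all of Cdk2. No peak in the list is named for Pmel. In running number the Cdk2 peak stands 10 numbers after the preceding peak of the list, with 9 numbers missing between them, and 1 number is missing after it. What the missing numbers stood for is not given in the list.

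Among protein-coding genes of chromosome 10, 304 of 1001 had a peak (30.4%), and among the 240 of 3.56 to 14.2 kb, a range around the span of Cdk2 itself, 54 had one (22.5%). Of the 304 genes, 136 had 1 peak, and that peak was an exon peak in 16 of the 136 (11.8%). The 2000 bp of the Cdk2 peak compare with a median of 1000 bp over the 834 peaks of the chromosome and 1000 bp over its 61 exon peaks, of which 13 were wider. Ranked with genes of every span, 25 of the 304 had a larger share of their length covered than Cdk2. The median over the 304 was 5.51%. A peak of a given width covers a larger share of a shorter gene, and the rank among genes of like span was not taken.

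The stretch just before the Cdk2 transcript is shown because the upstream edge of the peak lies close to it, 251 bp away. It is the 250 bases upstream of the first base, from RefSeq, build GRCm38.p6, at chr10:128705052-128705301 on the minus strand. Capitals mark the GC box letters GGGCGG, searched on both strands.

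Cdk2 upstream: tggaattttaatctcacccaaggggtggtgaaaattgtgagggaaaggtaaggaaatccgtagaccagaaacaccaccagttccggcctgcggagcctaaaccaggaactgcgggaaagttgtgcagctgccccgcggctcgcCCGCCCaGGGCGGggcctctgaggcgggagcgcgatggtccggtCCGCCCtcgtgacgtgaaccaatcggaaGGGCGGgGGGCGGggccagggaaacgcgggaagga

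There are 5 such matches in this window, and 1.93% of 32851 upstream windows of the same length in the RefSeq table hold as many. At least 1 match was found in 32.7% of windows. Its GC content was 63.2%, against a median of 52.4% over all windows. The window also holds 1 CCAAT box on either strand, and 33.8% of windows hold at least 1. No TATA box (the letters TATAAA) was found. These are matches of letters only. On chromosome 10 a peak touched 32 of 1649 upstream windows (1.94%), and that of Cdk2 was not among them.

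Spdya, which encodes the activator of CDK2 at telomeres, lies at chr17:71526895-71589533 on the plus strand. Its 4 peaks were all annotated as intron. They are 400, 600, 200 and 200 bp wide, that is 2, 3, 1 and 1 bins of 200 bp. They start 940, 3140, 8740 and 14540 bp after the first base of the transcript, over 13.8 kb of the 62.6 kb span. That transcript begins 25166 bp inside the extent of the gene, so the peaks lie in its middle: none lies in the first 26106 bp of the extent or in the last 22733 bp. The peak at chr17:71560801-71561000 and that at chr17:71566601-71566800 also lie within Trmt61b, annotated in the reference table as a long noncoding RNA gene at chr17:71557027-71598761, whereas those at chr17:71553001-71553400 and chr17:71555201-71555800 overlap no other gene. The list names 1 further peak for Trmt61b, which lies within the extent of Spdya too, so that 5 peaks overlap Spdya if names are set aside. Of the running numbers between its first and last peak, 1 is not carried by a peak named for Spdya. Whether that number belongs to the Trmt61b peak or is missing from the list was not determined.

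Spdya stands on a chromosome with few peaks. Only 32 of 1059 protein-coding genes of chromosome 17 had a peak (3.02%), and 14 of the 212 genes of 31.3 to 125 kb (6.6%). Dnah8, a dynein gene with 6 peaks, was the only gene of that chromosome with more peaks than Spdya. BC051142, Calm2, a calmodulin gene, and Hnrnpm, an hnRNP gene, had 4 each. By the share of the gene covered the order is different: 19 of the 32 genes had more than the 2.24% of Spdya, and their median was 5.04%. The widest Spdya peak, of 600 bp, equals the median width of the 60 peaks of the chromosome.

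Ccnb3, the meiotic cyclin, had the most peaks. It lies at chrX:6979652-7041635 on the minus strand, with a span of 62.0 kb. The 8 intron peaks, from the start of transcription onwards, are 20470, 3220, 6210, 1150, 1610, 1610, 1380 and 2070 bp wide. The widest, at chrX:7021441-7041910, is 53.9% of all the length covered in the gene. It begins 291 bp before the first base of the transcript and ends 20.2 kb into the gene. Within the first 25 kb the peaks covered 93.6% of the sequence, and beyond that 38.0% of the gene. The smallest gap between neighbouring peaks was 690 bp, or 3 bins of 230 bp, and no running number is missing from the first Ccnb3 peak to the last.

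The other 3 Ccnb3 peaks were annotated as intergenic and lie past the 3′ end of the gene, at distances of 5362, 12952 and 23532 bp from it. They are 1150, 2300 and 1150 bp wide, at chrX:6973141-6974290, chrX:6964401-6966700 and chrX:6954971-6956120. They fall in the 31289 bp between Ccnb3 and the next reference gene on that side, Dgkk, a diacylglycerol kinase gene on the plus strand with 15 peaks of its own. The farthest of the 3 is 23532 bp from Ccnb3 and 6608 bp from the end of Dgkk, and was named for Ccnb3 by the authors. The middle one is 12952 bp from Ccnb3 and 16038 bp from Dgkk. Of the 11 peaks that carry the name of Ccnb3, 8 lie within the gene. On the X chromosome 480 of 3404 peaks were intergenic (14.1%), and 36 protein-coding genes had 3 or more of them.

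Peaks were common on the X chromosome, where 469 of 966 protein-coding genes had one (48.6%), and among the 214 genes of 31.0 to 124 kb, 164 did (76.6%). Of the 469 genes, 69 had more peaks than Ccnb3 and 133 had a larger covered share, the median being 3 peaks and 36.9%. The widest Ccnb3 peak stood further out: 36 of the 469 genes had a wider one, and 47 of the 3404 peaks were wider. The median width over the chromosome was 1840 bp.

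Ccnb3 is the only member of the 4 with a RefSeq upstream window whose window lies under a peak, which is why it is shown. The 250 bases before the first base of the transcript are at chrX:7041620-7041869, build GRCm38.p6, minus strand, and all 250 lie under the widest peak. Capitals mark the core letters of the MYB motif, AACNG, searched on both strands. The motif was picked after the letters of the window had been read.

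Ccnb3 upstream: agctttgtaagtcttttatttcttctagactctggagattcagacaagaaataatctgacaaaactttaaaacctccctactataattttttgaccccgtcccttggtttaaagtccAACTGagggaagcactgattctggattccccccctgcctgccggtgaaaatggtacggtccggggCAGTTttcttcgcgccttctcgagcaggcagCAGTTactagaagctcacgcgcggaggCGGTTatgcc

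There are 4 matches, and 7.03% of the 32851 windows hold as many, while 74.2% hold at least 1. No GC box, CCAAT box or TATA box was found by the letters given above, and the GC content was 48.0%. On the X chromosome 128 of 1223 upstream windows (10.5%) lay wholly under a peak, that of Ccnb3 among them. Positions are given in bins of 230 bp, close to the 291 bp by which the peak passes the first base.

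**Figure D2:**
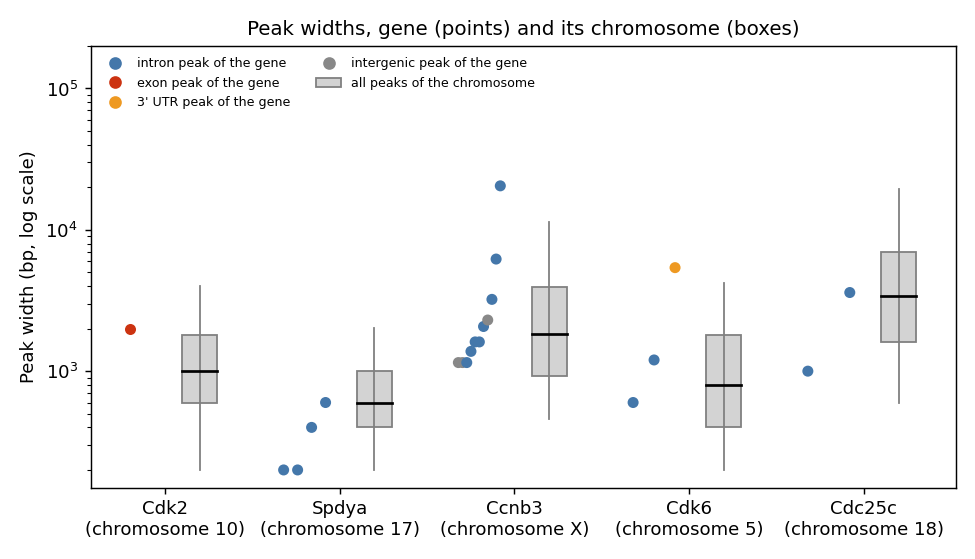
Width of every peak named for the 5 genes (points, left, coloured by class; some points of equal width touch), beside all peaks of the same chromosome (grey box, middle 50%; black bar, median; line, 5th to 95th percentile), in bp on a log scale. The widest Ccnb3 peak, 20470 bp, and the 3′ UTR peak of Cdk6, 5400 bp, lie above the 95th percentile of their chromosomes, and no Spdya peak lies above the median of chromosome 17.

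Cdk6, the kinase of D-type cyclins, lies at chr5:3341004-3531008 on the plus strand and is the longest of the 5 genes, at 190.0 kb. Its peaks were few and far apart. An intron peak of 1200 bp at chr5:3348201-3349400 lies 4308 bp after the first base of the transcript. An intron peak of 600 bp at chr5:3475001-3475600 lies 126 kb further on. The third, of 5400 bp at chr5:3524801-3530200, was annotated as 3′ UTR and ends 808 bp before the end of the gene. It makes up 75% of the length covered in Cdk6. Between the second and the third peak 3 running numbers are missing.

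On chromosome 5, 497 of 1269 protein-coding genes had a peak (39.2%), and 68 of the 131 genes of 95 to 380 kb did (51.9%). The number of peaks in Cdk6 was the median of the 497, which was 3, and its covered share of 3.79% was below their median of 10.1%, with 392 genes above it. Its 3′ UTR peak was the widest of the 115 peaks of that class on the chromosome, whose median was 1000 bp. Over all 2565 peaks of the chromosome 77 were wider, and the median was 800 bp.

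Cdc25c, the phosphatase, lies at chr18:34732993-34751564, a span of 18.6 kb. It had 2 intron peaks. The wider, of 3600 bp at chr18:34733801-34737400, begins 808 bp from the lower end of the gene and overlaps the pseudogene Gm3550 by 33 bp. The other, of 1000 bp at chr18:34740601-34741600, lies 3200 bp further on and overlaps no other gene. The upper 9964 bp of the gene held no peak of the list. The 2 peaks have consecutive running numbers.

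Wide peaks were usual on chromosome 18, with a median of 3400 bp over 931 peaks, and 434 were wider than the wider Cdc25c peak. On that chromosome 193 of 511 protein-coding genes had a peak (37.8%), as did 69 of the 164 genes of 9.29 to 37.1 kb (42.1%). Their median was 3 peaks and 34.6% of the gene covered, and 115 of the 193 genes had a larger covered share than Cdc25c.

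**Figure D3:**
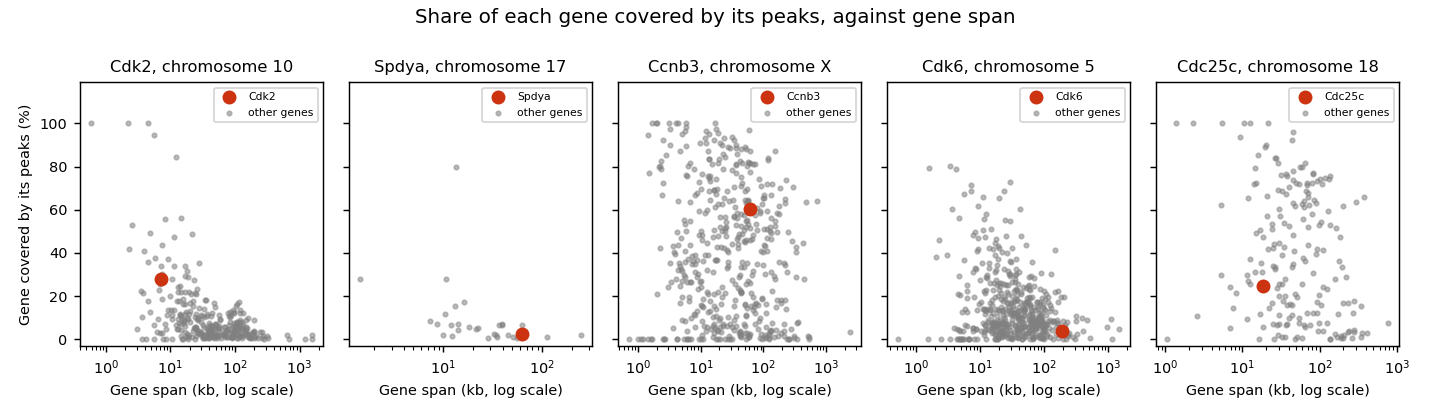
Share of each protein-coding gene covered by the peaks named for it (percent) against its span (kb, log scale), for genes with at least 1 peak on the chromosome of each of the 5 genes (red, the gene; grey, the other genes of that chromosome). Cdk2 (28.1%) lies above the chromosome 10 median of 5.51% and Ccnb3 (60.4%) above the X chromosome median of 36.9%, and Spdya (2.24%), Cdk6 (3.79%) and Cdc25c (24.8%) lie below theirs of 5.04%, 10.1% and 34.6%.

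The genes with the pattern most like each member were taken as those of the same chromosome with the same number of peaks and the nearest covered share. For Cdk2, out of 135 such genes, these were Mtfr2 at 29.4%, Tysnd1 at 30.2% and Tle5 at 25.6%. For Ccnb3, out of 8, they were Atp7a at 66.9%, Mageb4 at 50.1% and Tsc22d3 at 45.9%. For Cdc25c, out of 40, they were Fech at 25.8%, Hdhd2 at 23.5% and Aldh7a1 at 21.1%. For Cdk6, out of 71, they were Cox7b2 at 3.61%, Fbxl18 at 4.01% and Cops4 at 4.07%. For Spdya only 3 had the same number, BC051142 at 6.45%, Hnrnpm at 7.14% and Calm2 at 79.8%. Span was not matched in this choice. Against the 62.0 kb of Ccnb3, for example, Tsc22d3 spans 61.0 kb but Mageb4 only 5.96 kb.

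The wider CDK machinery was described by 8 lists of 118 symbols, of which 117 matched the reference and 77 are protein-coding genes on chromosomes that hold a peak. Of these 25 had a peak (32.5%, Wilson 95% interval 23.1% to 43.5%, which covers counting error over genes only), against 18.8% of all 14867 protein-coding genes there. The 5 members are among the 25 and were chosen with their peaks known, so their part in any such share was fixed. Of the other 72 genes 20 had a peak (27.8%). The lists too were chosen with earlier results of these data known. The shares of their other genes, here and below, are therefore descriptions and not an independent comparison. Chromosomes differ so much in their peaks that the count divides sharply. Where 10% or more of the coding genes of a chromosome had a peak (chromosomes 1, 5, 8, 10, 12, 16, 18 and X), 20 of 35 list genes other than the members had one (57.1%; 24 of 39, or 61.5%, with the members), against 35.7% of all coding genes. On the other chromosomes the member Spdya was the only list gene of 38 with a peak, against 2.28% of all coding genes. List genes were also somewhat longer, with a median span of 26.2 kb against 21.5 kb on the chromosomes with many peaks. Within a span of 15.9 to 62.6 kb, 11 of 17 list genes other than the members had a peak there (64.7%; 13 of 19, or 68.4%, with the members), against 1199 of 2649 coding genes (45.3%). The median number of peaks over the 77 genes was 0, as it was over all coding genes.

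Among the kinases, 4 of 14 CDK genes other than Cdk2 and Cdk6 had a peak (28.6%, and 6 of 16 with those members), against 18.8% of all coding genes. On the chromosomes with many peaks it was 4 of 11 (36.4%), near the 35.7% of all coding genes there. They were Cdk8, a kinase of the Mediator complex, with 11 intron peaks over 13.3% of the gene, and its paralog Cdk19 with 1. Cdk17 had 3, and the X-linked Cdk16, a kinase required for normal spermatogenesis in mouse, had 2 that covered 93.2% of its 12 kb. Of the 2 Cdk16 peaks 1 was annotated outside the gene. Cdk1, the kinase of cell division, and Cdk4, the closest relative of Cdk6, had none, although both lie on chromosome 10 with Cdk2. Cdk10, Cdk14, Cdk15 and Cdk18, on other chromosomes with many peaks, had none either. No peak was named for Cdk5, a kinase best known in neurons, but a 3′ UTR peak of 5000 bp named for its neighbour Abcb8, at chr5:24407201-24412200, overlaps it by 4604 bp, so the gene a peak is named for decides this count.

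Of 15 cyclin genes other than Ccnb3, 5 had a peak (33.3%, and 6 of 16 with Ccnb3), against 18.8% of all coding genes. On the chromosomes with many peaks lie 6 of the 15, of which Ccng2 had none, so that 5 of 6 had one, against 35.7%. These 6 genes are too few to set the list apart. With Ccnb3, the 7 cyclins there had a median span of 30.7 kb, against 21.5 kb for all coding genes. Ccnt2, a cyclin of transcription elongation, had 11 peaks over 67.0% of the gene, and Ccnk, the partner of CDK12 and CDK13, had 5 over 23.9%. Ccny, a membrane-associated cyclin that activates CDK16, had 10 peaks over 75.5%, and the related Ccnyl1 had 5 over 70.5%. Ccni had 2. By all named peaks Ccnb3 thus had as many as Ccnt2, but 3 of the Ccnb3 peaks and 1 of the Ccnt2 peaks were annotated outside the gene. Ccnb3 had a smaller covered share than Ccnt2, Ccny and Ccnyl1.

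**Figure D4:**
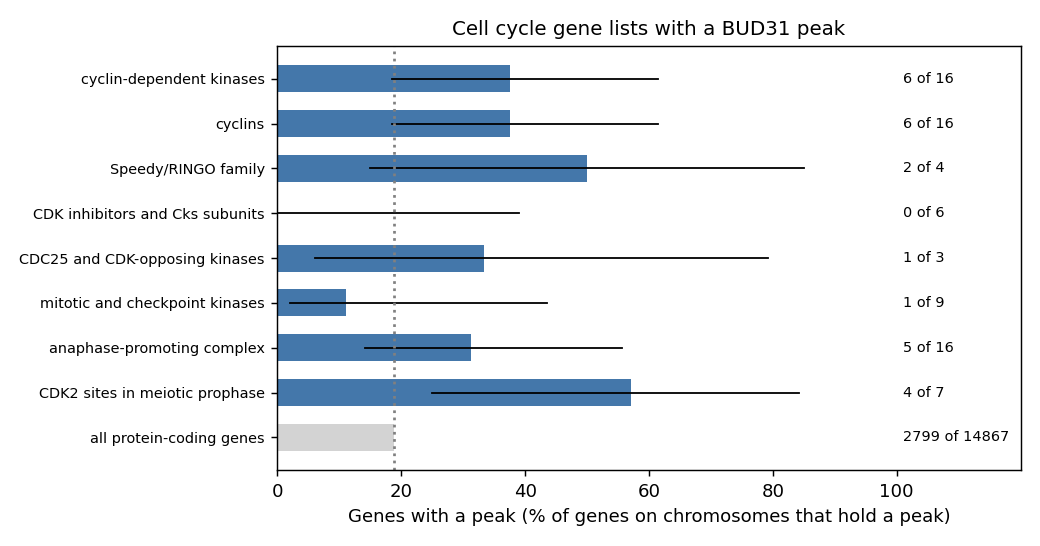
Percent of the protein-coding genes of each cell cycle list that had a peak (blue bars, with Wilson 95% intervals as black lines and the counts at the right), counting genes on chromosomes that hold a peak and including the 5 members, above all protein-coding genes of those chromosomes (grey bar and dotted line, 18.8%). The intervals of all lists but that of CDK2 sites in meiotic prophase reach down to or below the dotted line.

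Of the 3 Speedy family genes other than Spdya, 1 had a peak (33.3%, against 18.8% of all coding genes). It was Spdye4b, with 2 intron peaks over 5.82% of the gene. Members of this family share sequence, so that reads may be divided among copies. The 6 CDK inhibitor and Cks genes on these chromosomes (Cables1, Cables2, Cdkn1a, Cdkn2a, Cdkn2b and Cdkn2c) had none, against 18.8% of all coding genes. By the Wilson interval this allows a share of up to 39.0%. Moreover, 5 of the 6 lie on chromosomes with few peaks, where 2.28% of all coding genes had one. Of the genes that set the inhibitory phosphates, Cdc25c had peaks, whereas Cdc25b and Pkmyt1 had none. The latter lie on chromosomes 2 and 17, where 5.78% and 3.02% of coding genes had a peak. Of 9 mitotic and checkpoint kinase genes (11.1%, against 18.8% of all coding genes) only Nek2, a centrosome kinase, had peaks, and 7 of the 9 lie on chromosomes with few peaks. Nek2 had 8 peaks, of which 1 was annotated outside the gene, and 26.5% of Nek2 was covered. Of 16 genes of the anaphase-promoting complex and its regulators 5 had a peak (31.2%), all among the 9 on chromosomes with many peaks (55.6%, against 35.7% of all coding genes): Anapc4 with 3, Anapc5 with 4, Anapc7 with 4, and Fzr1 and Fbxo5 with 1 each. Of the 4 Anapc7 peaks 3 were annotated outside the gene, and 2.67% of Anapc7 was covered.

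At the structures where CDK2 sits in meiotic prophase, 4 of 7 genes had a peak (57.1%, 25% to 84.2%), against 18.8% of all coding genes. They are the 4 that lie on the chromosomes with many peaks, where 35.7% of all coding genes had one, and 4 genes are too few to set this list apart. Sun1, the nuclear envelope protein that tethers telomeres, had 12 peaks, of which 2 were annotated outside the gene, and 16.6% of Sun1 was covered. Terb1, a telomere adaptor, had 1 intron peak of 400 bp. Among crossover factors Mlh3 had 7 peaks over 60.1% and Rnf212 had 5 over 14.9%. Terb2, Majin and Cntd1 had none and lie on chromosomes 2, 19 and 11.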

How the data were processed

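BUD31 RIP-seq and input libraries, 1 each, were grouped by their titles. The aligner named by the submitters' processing notes is TopHat2 2.0.13 and the build is mm10. Nothing used here states how peaks were called, at what threshold or with what use of the input. The authors deposited 1 annotated peak list, whose columns, per the file headers, are a running number (up to 65288, with many missing), position, class, transcript and gene. Depth is unknown.

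Peaks count for the gene the authors name. Gene extents, 1-based, came from RefSeq on GRCm38.p6 (mm10), and upstream windows from the RefSeq promoter table, which holds 4 of the 5 members. Covered share is the overlap of a gene's extent with the union of its peaks. Interval arithmetic was tested on simulated data. Genes of like span lie between 0.5 and 2 times a member's span. Named genes were the members, list genes with a peak, genes overlapping members' peaks, and the 3 nearest in covered share at equal peak number; list genes without a peak, and neighbouring genes such as Abcb8, were named after their values were seen. The members and lists were chosen with earlier results of these data known, and the span ranges, upstream windows and motifs after the files were read. Alternatives varied the peaks counted, the overlap, the merging of peaks within 1000 bp and the chromosomes. Software was matplotlib 3.10.9, scipy 1.17.1, pandas 2.3.3 and numpy 2.4.6 under Python 3.11.15.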

Additional observations from a re-analysis of the deposited data

How the results depend on the processing

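Of 78 values recomputed under other choices, 66 stayed within their limits (1.5 times for a count of peaks, the 95% interval for a share, taken over bins for a covered share) and 12 moved. Keeping only peaks at or above the median width of their chromosome left 10 of the 21 peaks, and lowered the covered share of the 5 genes together to 13.1% from 15.5%, both by construction. Spdya then kept 1 peak over 0.958% of the gene, Ccnb3 kept 5 over 51.1% and Cdc25c kept 1, while Cdk2 kept its peak. Counting only intron, exon and UTR peaks, or peaks at least 50% inside the gene, left 18, because the 3 intergenic Ccnb3 peaks were dropped. Counting every peak that overlaps a member gave 19, and merging peaks up to 1000 bp apart gave 19. The share of list genes with a peak was 32.5% with intron, exon and UTR peaks only, 33.8% by overlap and 28.6% with the wider peaks only. The share over all coding genes was then 17.8%, 19.0% and 15.0%. On the chromosomes with many peaks the share of list genes was 61.5%, against 35.7% of all coding genes. Counting overlap instead of names added Cdk5 to the CDK list, which then had a share of 43.8%, against 19.0% of all coding genes. On the chromosomes with many peaks the shares of the cyclins, of the CDC25 list, of the mitotic kinases and of the genes at CDK2 sites moved to 85.7%, 100%, 50% and 100%, with 7, 1, 2 and 4 genes left. The 1 gene of the CDC25 list is the member Cdc25c itself, and without Ccnb3 the cyclins had 5 of 6 (83.3%). No paired analysis was possible because there was 1 library per group. Unknown depth means that a gene without a peak cannot be told apart from a gene with too few reads.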
